A study of Arabidopsis thaliana with 9 samples.

Results

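The Aux/IAA genes encode short-lived repressors of auxin responses, and the GH3 genes analysed with them encode enzymes that join auxin to amino acids. The set held 36 genes, the 29 Aux/IAA genes and GH3.1, GH3.2, GH3.3, GH3.4, GH3.5, GH3.6 and GH3.17, chosen by gene identifier. All 36 had a row among the 38115 genes counted on the VASA-seq plates and in the 10x all hypocotyl library, and among the 36957 genes counted in the d14 and WT libraries.

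At low auxin, Aux/IAA proteins bind auxin response factors (ARFs) and recruit TOPLESS co-repressors to their target genes. Auxin joins an Aux/IAA protein to an F-box receptor of the TIR1/AFB family through a short degron, called domain II, and the repressor is then degraded. Many Aux/IAA and GH3 genes are themselves induced by auxin, so that the pathway produces its own brakes, one acting on the ARFs and the other removing the hormone. In the stem and hypocotyl, auxin signalling is known for its part in the activity of the cambium and in the formation of xylem.

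The study profiled nuclei of Arabidopsis hypocotyls, the organ between root and shoot that thickens through the cambium, in 9 libraries. The 3 VASA cambium plates held nuclei of 4-week-old plants sorted on fluorescence of PXYpro:H4-GFP, a reporter of the xylem side of the cambium, and SMXL5pro:H2B-RFP, a reporter of the phloem side. The 3 VASA all hypocotyl plates and the 10x all hypocotyl library held nuclei of 4-week-old plants sorted for DNA stain only. The d14 library came from 19-day-old d14-1 plants, which lack a working strigolactone receptor, and the WT library from 19-day-old Col-0 plants. The plates and the 10x all hypocotyl library came from a Col-0 line that carries both reporters, and all plants were kept in short days (10 h light, 14 h dark). Each gate on the plates came from 1 preparation of pooled hypocotyls, so p-values over plates measure the spread between plates of a preparation, which may be technical, and gate and preparation cannot be told apart. Each genotype had 1 library. VASA-seq counts fragments along whole transcripts with and without a poly(A) tail, and 10x Chromium counts 3′ ends of polyadenylated transcripts, so levels were not compared across these methods. All values come from nuclei and leave out cytoplasmic RNA.

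After filtering on counts, 277 to 313 nuclei per VASA cambium plate, 181 to 293 per VASA all hypocotyl plate, 2081 of the 10x all hypocotyl library, 822 of d14 and 684 of WT remained. Their median counts were 4086 to 6059 on the plates and 1852 to 2029.5 in the 10x libraries. D14 transcripts, counted at 3′ ends and so no check of the lesion, were at 14.9 CPM (counts scaled to equal totals per group of nuclei) in d14 and 15.3 in WT. Reporter transcripts of either kind were present in 33.1% of cambium-gated nuclei and in 32.4% of all hypocotyl plate nuclei. Clustering without the 36 genes gave 18 clusters on the plates, and clusters were given a class name ending in "-like" only where marker lists allowed it, which was the case for 27.9% of plate nuclei, 45.6% of 10x all hypocotyl nuclei and 59.8% of d14 and WT nuclei. No cluster on the plates was vessel-like. The classes are rebuilt here, so a difference from the classes of the study may come from that.

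The degron decides which of these proteins auxin can remove, and is shown for 7 of the Aux/IAA genes described below. The core Gly-Trp-Pro-Pro followed by Val, Ile or Leu was encoded in 23 of 29 Aux/IAA genes. It was not found in the coding sequences of IAA20, IAA30, IAA31, IAA32, IAA33 and IAA34. The last residue was Val in 17 genes, Ile in 5 (IAA8, IAA11, IAA12, IAA13 and IAA27) and Leu in 1 (IAA10). In the windows below, read 5′ to 3′ along the gene from the TAIR10.1 assembly of RefSeq, capitals mark the core codons. The window of IAA12, also described below, is split by an intron and is not shown.
IAA8 (AT2G22670), chr2:9637722-9637760 (plus strand): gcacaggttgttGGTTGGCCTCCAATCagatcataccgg
IAA13 (AT2G33310), chr2:14115227-14115265 (minus strand): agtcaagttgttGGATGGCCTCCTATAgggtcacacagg
IAA16 (AT3G04730), chr3:1289724-1289762 (minus strand): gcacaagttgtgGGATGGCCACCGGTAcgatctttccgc
IAA9 (AT5G65670), chr5:26255101-26255139 (plus strand): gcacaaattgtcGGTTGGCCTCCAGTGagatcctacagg
IAA3 (AT1G04240), chr1:1129013-1129051 (minus strand): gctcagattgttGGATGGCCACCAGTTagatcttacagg
IAA17 (AT1G04250), chr1:1136935-1136973 (plus strand): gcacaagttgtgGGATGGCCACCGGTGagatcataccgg
IAA19 (AT3G15540), chr3:5264304-5264342 (plus strand): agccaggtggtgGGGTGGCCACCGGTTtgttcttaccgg

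The 250 bases upstream of the annotated gene start are shown for 3 genes that were higher in d14 and hold auxin response element letters, and for IAA3, which was also higher in d14 and holds none. The letters searched were TGTCTC and TGTCGG on both strands, and capitals mark every match, as read on the strand of the gene (GAGACA and CCGACA are matches on the other strand). Either hexamer was found upstream of 16 of 36 genes (44.4%) and of 4027 of 27443 protein-coding genes (14.7%). TGTCTC was found in 12 of 36 (33.3%, against 10.9% of all) and TGTCGG in 6 of 36 (16.7%, against 4.16% of all). Genes with both, here IAA1 and IAA5, are included in each count. A match is a string of letters and not a known binding site.
IAA19 (AT3G15540), chr3:5263751-5264000 (plus strand): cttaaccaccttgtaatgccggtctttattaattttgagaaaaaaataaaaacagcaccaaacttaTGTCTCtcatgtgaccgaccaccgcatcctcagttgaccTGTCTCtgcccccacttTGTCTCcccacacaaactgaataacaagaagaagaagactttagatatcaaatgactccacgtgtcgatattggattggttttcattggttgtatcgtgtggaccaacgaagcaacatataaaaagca
IAA5 (AT1G15580), chr1:5366498-5366747 (minus strand): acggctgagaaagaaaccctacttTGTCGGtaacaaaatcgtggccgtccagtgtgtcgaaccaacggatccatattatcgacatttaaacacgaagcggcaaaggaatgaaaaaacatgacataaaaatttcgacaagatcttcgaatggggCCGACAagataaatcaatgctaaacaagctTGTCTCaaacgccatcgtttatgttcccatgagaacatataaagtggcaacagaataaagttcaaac
IAA1 (AT4G14560), chr4:8360746-8360995 (plus strand): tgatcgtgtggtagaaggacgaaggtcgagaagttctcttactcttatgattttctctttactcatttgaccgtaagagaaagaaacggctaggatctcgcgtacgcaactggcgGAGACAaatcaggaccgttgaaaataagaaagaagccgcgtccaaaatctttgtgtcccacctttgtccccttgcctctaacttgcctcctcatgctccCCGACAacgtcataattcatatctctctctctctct
IAA3 (AT1G04240), chr1:1129690-1129939 (minus strand): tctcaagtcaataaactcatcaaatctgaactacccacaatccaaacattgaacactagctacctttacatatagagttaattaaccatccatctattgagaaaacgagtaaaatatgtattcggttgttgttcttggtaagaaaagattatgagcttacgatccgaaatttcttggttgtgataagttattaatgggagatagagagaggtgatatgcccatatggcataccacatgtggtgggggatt

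IAA9 and IAA16 had the most counts of the family in both methods. Per kilobase of gene, introns included, IAA9 reached 143 ± 23.3 CPM and IAA16 134 ± 12.8 CPM on the plates (mean ± SD, n = 6), and their ranges of 121 to 172 and 116 to 153 overlapped. IAA26 came next at 71.8 ± 6.61 CPM per kilobase, and no plate of it overlapped with IAA9 or IAA16. IAA3 (56.7 ± 9.63), IAA4 (52.2 ± 10.4) and IAA2 (48.9 ± 11.5) followed with overlapping ranges. GH3.6 (AT5G54510), which encodes an auxin-amido synthetase, had the widest spread of these genes at 45.9 ± 33.8, and its level differed between the gates. IAA27 (42.4 ± 4.51) and IAA13 (41.9 ± 11.1) ended the group of 9 with more than 40 CPM per kilobase. In the 10x all hypocotyl library, where each molecule gives 1 count, IAA16 (869 CPM), IAA9 (831), IAA26 (329) and IAA3 (286) led the Aux/IAA genes, and GH3.17 (244) led the GH3 genes.

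All 36 genes had counts in both methods at 4 weeks, with 26 genes at 50 counts or more on the plates and 22 in the 10x all hypocotyl library. In d14, 32 of 36 had counts, and in WT 29 of 36. IAA6, IAA15, IAA20, IAA31 and IAA33 among the Aux/IAA genes and GH3.4 among the GH3 genes had at most 6 counts over all 6 plates, where 3 counts correspond to 0.322 CPM. Of 14 gene pairs close in sequence, 7 differed by at least 2-fold in the 10x all hypocotyl library and 7 by less, and the higher member was the same on the plates and in the 3 10x libraries for 8 pairs. IAA30 had 122 counts on the plates and its paralogue IAA20 had 1. GH3.3 had 53 and its paralogue GH3.4 had 4. IAA1 and IAA2 lay closer, at 163 and 201 CPM in the 10x all hypocotyl library, and IAA12 and IAA13 at 108 and 161 CPM. In the 10x all hypocotyl library IAA9 was 6.86 times IAA8 and IAA16 was 7.99 times IAA17. Counts of IAA3, IAA5, IAA9, IAA10, IAA11, IAA13, IAA27 and IAA32, which overlap an annotated gene on the other strand, and of IAA34, which overlaps one on the same strand, may include reads of that gene, since the strand setting of the counting is not given in the sources used here.

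The members fell into several tissue patterns, with different genes leading in xylem, phloem and outer tissues. IAA8, IAA12 and IAA13 were high in both xylem parenchyma-like clusters and IAA30 in 1 of them, GH3.6 and IAA18 in companion cell-like nuclei, IAA16 in phloem parenchyma-like nuclei, IAA7 in epidermis-like nuclei, and GH3.17 there and in an unnamed cluster. Class levels are described here, with the tests of tissues given afterwards. The error is the SD over 6 plates, and small classes give few counts per plate.

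**Figure D1:**
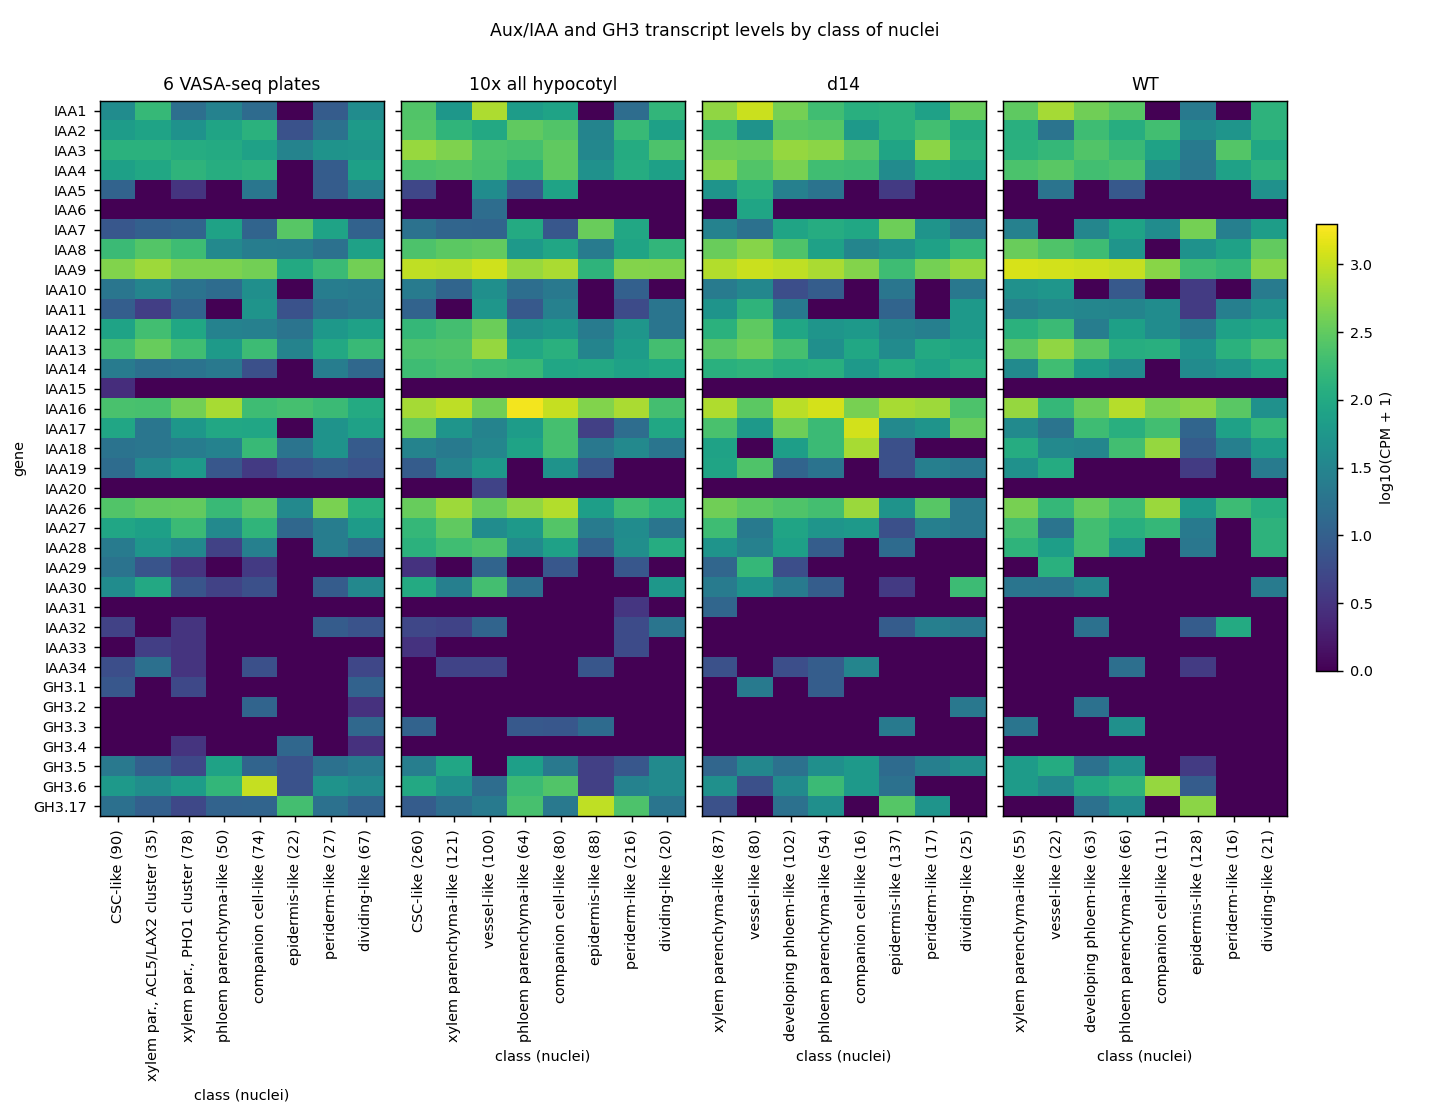
Level of each Aux/IAA and GH3 gene (rows) by class of nuclei (columns, number of nuclei in brackets) on the 6 VASA-seq plates, in the 10x all hypocotyl library, in d14 and in WT, as pooled CPM on a log10(CPM + 1) colour scale, with unnamed nuclei left out. IAA9 and IAA16 form bright rows, and on the plates GH3.6 stands out in companion cell-like nuclei.

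IAA12 (AT1G04550), known as BODENLOS, a repressor of the activating factor ARF5, and its paralogue IAA13 were highest in the xylem parenchyma-like cluster led by ACL5 and LAX2. AT1G14190 and AT3G10080, which are on the vessel marker list, also led this cluster, so it may hold developing vessels as well as xylem parenchyma. There IAA12 had 193 ± 89.9 CPM, against 53.4 CPM in all other nuclei, and was higher on 6 of 6 plates. IAA13 had 331 ± 164 CPM against 121 CPM, also on 6 of 6 plates. IAA30, which lacks the domain II core, had 86.0 ± 41.3 CPM in the same cluster, against 10.9 CPM elsewhere, and 5.53 ± 6.18 CPM in the other xylem parenchyma-like cluster, led by PHO1 and MYB48. The plate values of these 2 clusters, 37.0 to 150 CPM and 0 to 13.0 CPM, did not overlap for IAA30. CSC-like nuclei (cambium stem cell) had 42.0 ± 43.6 CPM of IAA30, about as much as the 40.1 ± 27.1 CPM over both xylem parenchyma-like clusters. The 10x all hypocotyl library did form a vessel-like class of 100 nuclei, and there IAA13 had 606 CPM (95% Poisson interval 518 to 704), IAA12 356 CPM (290 to 433) and IAA30 207 CPM (157 to 267). These intervals, like all intervals given here, cover counting error only. All 3 genes were lower in the 121 xylem parenchyma-like nuclei of that library, at 242, 205 and 25.7 CPM.

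IAA8 was not restricted to 1 xylem cluster. On the plates it had 254 ± 104 CPM in the ACL5 and LAX2 cluster, 194 ± 74.0 CPM in the PHO1 and MYB48 cluster and 182 ± 54.6 CPM in CSC-like nuclei, each above the other nuclei on 6 of 6 plates. Phloem parenchyma-like nuclei had 35.3 ± 33.3 CPM and companion cell-like nuclei 22.3 ± 20.3 CPM of IAA8. In the 10x all hypocotyl library IAA8 had 324 CPM in vessel-like, 290 CPM in xylem parenchyma-like and 240 CPM in CSC-like nuclei. Companion cell-like and phloem parenchyma-like nuclei lay below these, at 89.1 and 58.2 CPM. The CSC-like class of that library was led by GSL04 and DOF2.4, and that of the plates by XYP2, DWF4 and WOX4. On the plates GSL04 and TET5 led an unnamed cluster, so the CSC-like classes of the methods may hold different nuclei. IAA1 had its highest class level in vessel-like nuclei in each of the 10x libraries. It had 780 CPM there in the 10x all hypocotyl library (680 to 891), against 163 CPM over all nuclei and 55.0 CPM in xylem parenchyma-like nuclei. In d14 it had 1095 CPM in vessel-like nuclei (950 to 1256) and in WT 719 CPM (516 to 975).

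Among the phloem classes, companion cell-like nuclei had 1050 ± 770 CPM of GH3.6, against 85.5 CPM in other nuclei (higher on 6 of 6 plates). IAA18 had 162 ± 85.5 CPM in the same class, against 20.6 CPM elsewhere, also on 6 of 6 plates. IAA16 instead had its highest level in phloem parenchyma-like nuclei, 785 ± 300 CPM against 356 CPM elsewhere on 6 of 6 plates, and 184 ± 51.8 CPM in companion cell-like nuclei. The 10x all hypocotyl library gave 254 CPM of GH3.6 (179 to 350) and 213 CPM of IAA18 (144 to 302) in companion cell-like nuclei, and 1740 CPM of IAA16 in phloem parenchyma-like nuclei (64 nuclei, 239 counts). IAA7, known as AXR2, had 284 ± 199 CPM in the 22 epidermis-like nuclei of the plates, against 30.9 CPM elsewhere, higher on 5 of 6 plates. GH3.17 (AT1G28130), which conjugates auxin to glutamate, had 457 ± 109 CPM in the unnamed cluster led by SULTR1;2 and DOX1, against 24.2 CPM elsewhere on 6 of 6 plates, and 153 ± 168 CPM in epidermis-like nuclei. In the 10x all hypocotyl library GH3.17 had 1193 CPM in the unnamed cluster led by DOX1 and LAC7 and 954 CPM in epidermis-like nuclei.

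A first test of tissues used the reporter transcripts in place of clusters. Nuclei with H4GFP and no H2BRFP counts (PXY side, 213 nuclei) were set against nuclei with H2BRFP and no H4GFP counts (SMXL5 side, 228 nuclei) within each of the 6 plates, by edgeR's quasi-likelihood test with plate as a block and Benjamini-Hochberg adjustment over all genes tested. IAA8 and IAA12 were higher and IAA16 was lower on the PXY side, 3 of the 13 genes of the set with enough counts for the test. Over all 5522 genes tested, 6.28% were called, 3.01% higher and 3.28% lower. The split needs 1 transcript of a reporter, and it mixes cell types. Of PXY-side and SMXL5-side nuclei, 54 and 2 were xylem parenchyma-like and 32 and 9 CSC-like. Phloem parenchyma-like nuclei numbered 3 and 10, and companion cell-like nuclei 7 and 4. Unnamed nuclei made up 45.1% of the PXY side and 84.2% of the SMXL5 side.

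IAA8 had 83.0, 147 and 132 CPM on the PXY side of the cambium plates and 171, 163 and 123 CPM on that of the all hypocotyl plates. On the SMXL5 side it had 82.5, 39.9 and 60.0 CPM and 21.0, 36.9 and 23.4 CPM on the same plates. The sides did not overlap, although cambium plate 1 had nearly the same value on both, and the log2 fold change was 1.60 ± 0.30 (SE; edgeR adjusted p = 0.00393). IAA8 was at 1.07 on the cambium plates alone, where it did not pass (adjusted p = 0.159), and at 2.47 on the all hypocotyl plates alone (adjusted p = 0.00525). IAA12 had 122, 114 and 74.0 CPM (cambium) and 87.1, 152 and 133 CPM (all hypocotyl) on the PXY side. On the SMXL5 side it had 52.1, 32.0 and 64.8 CPM and 42.0, 36.9 and 46.7 CPM. Again no plate overlapped, with a log2 fold change of 1.24 ± 0.26 (edgeR adjusted p = 0.00836). IAA12 lost its call with at least 2 reporter counts (adjusted p = 0.09996), on the cambium plates alone (0.184) and on the all hypocotyl plates alone (0.0637). Non-overlap of all plates was found for 2.28% of genes tested.

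IAA16 ran the other way. It had 304, 140 and 311 CPM (cambium) and 280, 312 and 347 CPM (all hypocotyl) on the PXY side, and 308, 290 and 432 CPM and 447, 465 and 570 CPM on the SMXL5 side. It was lower on the PXY side on 6 of 6 plates, although the groups overlapped and cambium plate 1 differed by little, with a log2 fold change of -0.60 ± 0.15 (edgeR adjusted p = 0.0254). The call was lost without cambium plate 2 (adjusted p = 0.103) and without all hypocotyl plate 1 (0.0795), 2 (0.0558) or 3 (0.0616). It was also lost by DESeq2 (adjusted p = 0.0560) and, in edgeR, with no plate term (0.165), with at least 2 reporter counts (0.513), on the cambium plates alone (0.372) and on the all hypocotyl plates alone (0.168). IAA13 averaged 190 ± 41.8 CPM on the PXY side and 127 ± 61.1 CPM on the SMXL5 side and was higher on 6 of 6 plates, but missed the threshold (log2 0.65 ± 0.21, edgeR adjusted p = 0.0869). GH3.6 had 27.7, 47.9 and 128 CPM (cambium) and 215, 139 and 53.4 CPM (all hypocotyl) on the PXY side, against 43.4, 7.99 and 14.4 CPM and 142, 398 and 262 CPM on the SMXL5 side. Neither side was higher throughout, and it did not pass (log2 -0.04 ± 0.53, edgeR adjusted p = 0.978), with a wide standard error.

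**Figure D2:**
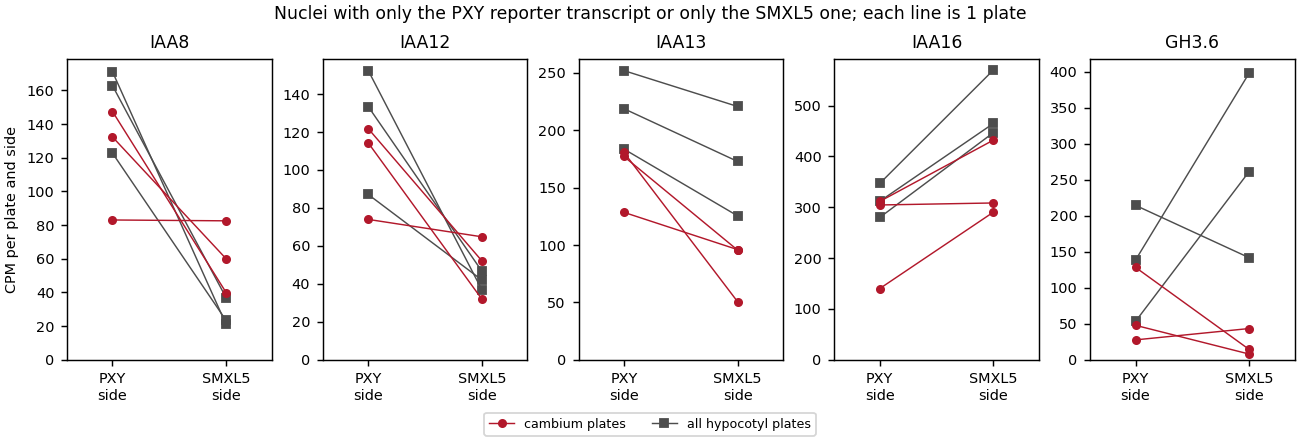
IAA8, IAA12, IAA13, IAA16 and GH3.6 in PXY-side nuclei (left) and SMXL5-side nuclei (right) of each VASA-seq plate, in CPM, with lines joining the sides of a plate. IAA8 and IAA12 lie higher on the PXY side on 6 of 6 plates and IAA16 lies lower.

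Of the genes that bind or release these repressors, ARF5 was higher on the PXY side (log2 3.13 ± 0.24, edgeR adjusted p = 8.4e-07), as was ARF19 (log2 1.22 ± 0.17, adjusted p = 0.000322). None of the 5 TIR1/AFB receptor genes tested and none of the 5 TOPLESS genes tested passed. GH3.12, outside the auxin-conjugating group, was lower (log2 -2.39 ± 0.42, edgeR adjusted p = 0.00257). Of 51 other published auxin-induced genes tested, 9 were higher and 8 lower (33.3%, against 6.28% of all genes), with a median log2 fold change of -0.28.

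The same split in the 10x all hypocotyl library, a single library with no replicate, gave values for more members. IAA8 was at 2.55 times its SMXL5-side level (95% exact interval 1.72 to 3.902), IAA12 at 1.97 times (1.37 to 2.89) and IAA16 at 0.689 times (0.582 to 0.816). These lay in the same direction as on the plates. IAA13 was at 2.97 times (2.09 to 4.32), IAA28 at 5.55 times (3.06 to 11.1), IAA30 at 4.24 times (2.11 to 9.68) and IAA19 at 4.44 times (1.75 to 14.4). IAA17 (0.411 times, 0.282 to 0.596) and IAA3 (0.648 times, 0.509 to 0.826) were lower on the PXY side. On the plates neither passed, with IAA17 also lower on the PXY side (59.1 ± 29.2 CPM, against 83.0 ± 19.5 CPM) but IAA3 at 107 ± 61.9 CPM on the PXY side and 79.5 ± 24.6 CPM on the SMXL5 side (log2 0.31, edgeR adjusted p = 0.551). Of all 1433 genes with at least 100 counts over both sides, 16.3% differed by at least 2-fold between these nuclei. IAA19 and IAA30 had fewer counts than that. GH3.3 had 0 counts on the PXY side and 21 on the SMXL5 side. GH3.5 (4 and 15 counts, 0.152 times, 0.0367 to 0.477) and GH3.17 (10 and 17 counts, 0.335 times, 0.137 to 0.775) were also lower on the PXY side. GH3.6 was at 0.997 times (0.560 to 1.82).

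A second test set the xylem parenchyma-like nuclei of the plates against the companion cell-like and phloem parenchyma-like nuclei, again within plates. Since other genes of the same nuclei form these classes, 32.2% of all 2018 genes tested were called (14.9% higher and 17.2% lower), and the 3 of 9 members called are near that share. IAA8 had 173, 198 and 176 CPM (cambium) and 240, 280 and 145 CPM (all hypocotyl) in the xylem class. In the phloem classes it had 43.5, 19.5 and 31.8 CPM and 22.0, 21.3 and 36.4 CPM. The ranges were far apart, with a log2 fold change of 2.73 ± 0.32 (edgeR adjusted p = 2.4e-06). GH3.6 had 0, 13.6 and 0 CPM (cambium) and 174, 35.6 and 87.3 CPM (all hypocotyl) in the xylem class, against 65.2, 633 and 102 CPM and 822, 1621 and 958 CPM in the phloem classes. The means were 51.7 ± 68.1 and 700 ± 582 CPM (log2 -4.00 ± 0.44, edgeR adjusted p = 1.3e-06), lower in xylem on 6 of 6 plates. IAA13 had 231, 259 and 149 CPM (cambium) and 294, 249 and 335 CPM (all hypocotyl) in the xylem class, against 54.4, 77.9 and 146 CPM and 161, 74.7 and 267 CPM in the phloem classes, with overlap (log2 0.98 ± 0.28, edgeR adjusted p = 0.0134). Without cambium plate 2, IAA13 had an edgeR adjusted p of 0.0547. Without the ACL5 and LAX2 cluster the value of IAA13 was 0.57 and no longer passed (adjusted p = 0.183), and GH3.6 was too low for the test, as it was without all hypocotyl plate 1. IAA16 was at 320 ± 83.3 CPM in the xylem class and 414 ± 71.9 CPM in the phloem classes, lower in xylem on 4 of 6 plates, and did not pass (log2 -0.44, edgeR adjusted p = 0.168).

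Genes of other parts of the pathway also differed between these classes. ARF5 had 367 CPM in the xylem class and 17.3 CPM in the phloem classes (log2 4.24 ± 0.37, edgeR adjusted p = 7.5e-08). ARF1 (log2 1.12) and ARF2 (log2 0.62), which act as repressors, were higher and ARF4 (log2 -0.84) was lower in xylem. The receptor gene AFB1 was lower in xylem at 58.2 CPM, against 218 CPM in phloem (log2 -1.997 ± 0.308, edgeR adjusted p = 6e-05). Of 25 other auxin-induced genes tested, 7 were higher and 3 lower (40.0%, against 32.2% of all genes). The 7 include LAX2 and ACL5, which are on the marker list that named the xylem class. Their calls follow from that naming and add no support.

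CSC-like nuclei were then compared with the mean of xylem and phloem classes. Of 10 members tested, IAA8 was higher, and IAA16 and GH3.6 were lower, where 23.1% of all 2445 genes were called (12.9% higher and 10.3% lower). IAA8 had 127, 159 and 189 CPM (cambium) and 128, 239 and 253 CPM (all hypocotyl) in CSC-like nuclei. The means were 182 ± 54.6 CPM in CSC-like nuclei, 202 ± 49.4 CPM in the xylem class and 29.1 ± 9.70 CPM in the phloem classes (log2 1.19 ± 0.24, edgeR adjusted p = 0.000908). CSC-like nuclei thus lay near the xylem level. IAA16 had 137, 86.8 and 287 CPM (cambium) and 289, 191 and 280 CPM (all hypocotyl) in CSC-like nuclei, on average 212 ± 87.2 CPM, against 320 ± 83.3 CPM in xylem and 414 ± 71.9 CPM in phloem (log2 -0.81 ± 0.21, edgeR adjusted p = 0.00681), below both. GH3.6 had 42.2, 14.5 and 14.0 CPM (cambium) and 102, 107 and 80.0 CPM (all hypocotyl), on average 60.0 ± 42.2 CPM, against 51.7 CPM in xylem and 700 CPM in phloem (log2 -1.51 ± 0.45, edgeR adjusted p = 0.0163), again near xylem. The call of GH3.6 was lost without all hypocotyl plate 3 (edgeR adjusted p = 0.0570) and with no plate term (0.112), and GH3.6 was too low for the test without all hypocotyl plate 1 or without the ACL5 and LAX2 cluster. Of the ARF genes, ARF5 (log2 1.39) and ARF3 (log2 0.87) were higher and ARF19 (log2 -0.80) was lower in CSC-like nuclei than in that mean. ARF5 had 218 CPM in CSC-like nuclei, below its 367 CPM in the xylem class and above its 17.3 CPM in the phloem classes.

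The gate compared nuclei sorted on the cambium reporters with all hypocotyl nuclei. Of 26 members with enough counts, 5 passed edgeR's test and all 5 were lower in the cambium gate: GH3.6, GH3.3, GH3.17, IAA30 and IAA13. Of all 16132 genes tested, 3.13% were called, 1.36% higher and 1.77% lower. Over the 26 members, 19 had a negative and 7 a positive log2 fold change, with a median of -0.33 against -0.004 over all genes, and 12 had an unadjusted p below 0.05. By family, 3 of the 4 GH3 genes tested and 2 of the 22 Aux/IAA genes tested passed.

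GH3.6 had 36.2, 53.0 and 40.6 CPM on the cambium plates, against 173, 209 and 239 CPM on the all hypocotyl plates. The groups were far apart, with a log2 fold change of -2.24 ± 0.20 (SE; edgeR adjusted p = 0.000547). GH3.3, also an auxin-amido synthetase gene and strongly auxin-inducible, had 1.37, 1.17 and 0 CPM, against 13.2, 9.13 and 11.3 CPM (log2 -3.67 ± 0.60, edgeR adjusted p = 0.0115). It rests on 53 counts, and without all hypocotyl plate 1 its adjusted p was 0.0608. GH3.17 had 31.4, 25.6 and 30.7 CPM, against 105, 74.4 and 36.6 CPM, so that all hypocotyl plate 3 lay close to the cambium plates (log2 -1.31 ± 0.30, edgeR adjusted p = 0.0416). GH3.17 kept the call without all hypocotyl plate 3 (adjusted p = 0.00866) and lost it without any 1 of the other plates, with the highest adjusted p (0.149) without all hypocotyl plate 1.

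IAA30 had 3.42, 6.41 and 6.04 CPM on the cambium plates, against 13.2, 33.7 and 20.9 CPM on the all hypocotyl plates (log2 -2.03 ± 0.41, edgeR adjusted p = 0.0274). IAA13 had 105, 95.6 and 97.1 CPM, against 171, 138 and 164 CPM (log2 -0.67 ± 0.14, edgeR adjusted p = 0.0292). No cambium plate of these genes reached the lowest all hypocotyl plate, as was the case in either direction for 10 of 26 members and 18.9% of all genes. IAA13 kept the call without all hypocotyl plate 2 (adjusted p = 0.0257) and lost it without any 1 of the other plates, up to an adjusted p of 0.122 without all hypocotyl plate 1. IAA30 kept it without all hypocotyl plate 1 (adjusted p = 0.0253) and lost it without any 1 of the others, up to 0.110 without all hypocotyl plate 2. GH3.6 kept it in 6 of 6 such fits (log2 -2.43 to -2.08). Without the nuclei of highest doublet scores IAA30 (adjusted p = 0.0519) and GH3.17 (0.0908) lost the call. IAA28 had 38.3, 20.4 and 20.3 CPM, against 10.9, 16.9 and 13.1 CPM, without overlap in the other direction, but did not pass (log2 0.95, edgeR adjusted p = 0.151).

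The most abundant members did not pass between the gates. IAA9 had 392, 382 and 379 CPM on the cambium plates, against 540, 514 and 487 CPM on the all hypocotyl plates, and did not pass although the plates did not overlap (log2 -0.41). IAA16 had 338, 318 and 380 CPM, against 375, 418 and 375 CPM (log2 -0.17). IAA26 had 167, 183 and 214 CPM, against 200, 180 and 177 CPM (log2 0.03). IAA27 had 105, 79.3 and 81.8 CPM, against 85.4, 89.9 and 84.4 CPM (log2 0.04), IAA3 had 62.9, 82.8 and 92.8 CPM, against 92.3, 85.7 and 108 CPM (log2 -0.24), and IAA4 had 72.4, 63.5 and 67.0 CPM, against 88.8, 83.6 and 106 CPM (log2 -0.45). Of these 6 genes, IAA9 and IAA4 had no overlap between the gates.

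**Figure D3:**
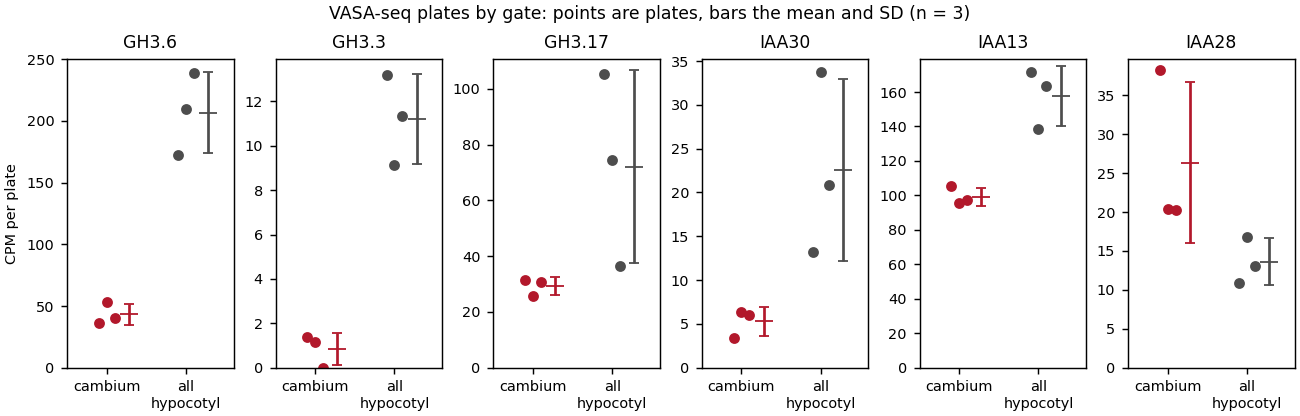
GH3.6, GH3.3, GH3.17, IAA30, IAA13 and IAA28 on each VASA-seq plate, in CPM, with the 3 cambium plates left of the 3 all hypocotyl plates, and bars for the mean and SD. GH3.6 lies between 36.2 and 53.0 CPM on the cambium plates, below the 173 to 239 CPM of the all hypocotyl plates.

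The gates also differed in which nuclei they held, as companion cell-like nuclei made up 3.74% of the cambium and 5.81% of the all hypocotyl nuclei, epidermis-like nuclei 0.567% and 2.41%, periderm-like nuclei 0.227% and 3.54%, and the cluster led by SULTR1;2 and DOX1 4.20% and 7.08%. CSC-like nuclei made up 5.44% of the cambium and 5.95% of the all hypocotyl nuclei, xylem parenchyma-like nuclei 5.90% and 8.64%, and phloem parenchyma-like nuclei 3.51% and 2.69%. With counts pooled over plates, GH3.6 was lower in the cambium gate within each of the 18 clusters. This pattern was found for 0.0806% of all genes tested (0.0124% were higher in each). Genes without counts in 1 or more of the clusters could not show it, and the share among genes as abundant as GH3.6 was not tested. Some clusters held few cambium-gated nuclei, with 2 periderm-like and 5 epidermis-like nuclei. The log2 difference of GH3.6 was -2.16 when the cluster mix of the cambium plates was held at that of the all hypocotyl plates. Companion cell-like nuclei of the cambium plates had some GH3.6 on each plate, and phloem parenchyma-like nuclei had 0 CPM there, against 353 ± 228 CPM on the all hypocotyl plates. Companion cell-like nuclei had 635 ± 826 CPM on cambium plates, against 1466 ± 531 CPM on all hypocotyl plates. CSC-like nuclei had 23.5 ± 16.1 CPM, against 96.4 ± 14.5 CPM. With the mix held, IAA30 was at -1.71, IAA13 at -0.63 and GH3.3 at -4.17, while GH3.17 moved to -0.51.

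**Figure D4:**
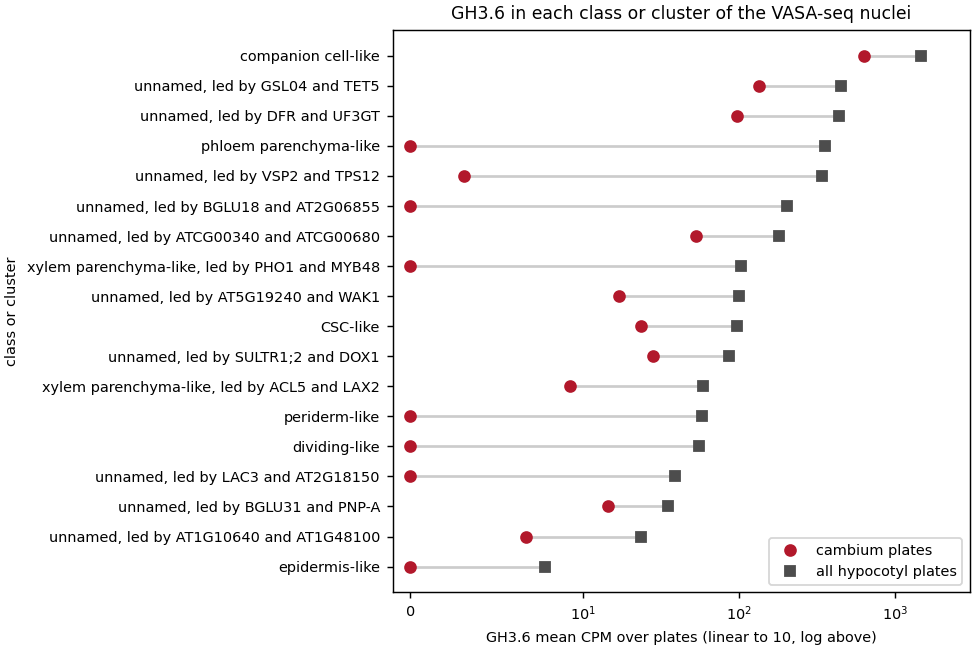
GH3.6 in each of the 18 clusters of the VASA-seq nuclei, as mean CPM over the plates of each gate that held nuclei of the cluster. The axis is linear to 10 CPM and logarithmic above. Periderm-like nuclei of the cambium gate came from cambium plate 3 only (2 nuclei). The cambium value is the lower one in 18 of 18 clusters.

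Of 6 other genes of auxin metabolism tested between the gates, 2 passed, where 3.13% of all genes did. DAO2, a relative of the auxin-oxidising enzyme DAO1, was lower in the cambium gate (log2 -2.67 ± 0.47, edgeR adjusted p = 0.0149), and UGT74D1, an auxin glucosyltransferase, was higher (log2 1.45 ± 0.27, edgeR adjusted p = 0.0193). None of 15 ARF genes, 6 receptor genes and 5 TOPLESS genes tested passed. Of 99 other auxin-induced genes tested, 5 were higher and 8 lower (13.1% in all), with a median log2 fold change of -0.11, among them HAT2 (log2 -1.91 ± 0.19) and PIN3 (log2 -0.71 ± 0.13).

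A last question was whether d14, in which strigolactone cannot be perceived by this receptor, differed from WT. With 1 library per genotype no test of genotype is possible, and ratios of CPM over all nuclei carry an exact 95% interval. A ratio above 1 was found for 12 of 18 Aux/IAA genes and 0 of 3 GH3 genes with at least 50 counts. Among all genes with as many counts, 50.8% had a ratio above 1. Of 21 members with at least 50 counts, the interval lay above 1 for 10 and below 1 for 5, against 12.3% and 13.0% of all genes with at least 50 counts. All 10 were Aux/IAA genes, out of 18 with enough counts, and 2 of 3 GH3 genes had an interval below 1. At least 2-fold higher levels in d14 were found for 4 of 19 members with at least 100 counts, against 2.27% of all genes, and 2-fold lower levels for 0, against 2.11% (4.39% in either direction).

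IAA19, known as MSG2, a gene of hypocotyl bending, had 38.9 CPM in d14 and 11.2 CPM in WT (81 and 19 counts), a ratio of 3.48 (2.09 to 6.07). IAA14, known as SLR, had 114 CPM in d14 and 47.2 CPM in WT (238 and 80 counts), a ratio of 2.43 (1.88 to 3.166). IAA3, known as SHY2, had 233 and 103 CPM in d14 and WT (485 and 175 counts), a ratio of 2.26 (1.90 to 2.702). IAA3 and its neighbour on chromosome 1, IAA17, known as AXR3, were higher by similar ratios. IAA17 had 132 CPM in d14 and 59.0 CPM in WT, a ratio of 2.23 (1.77 to 2.84). IAA1 had 293 CPM in d14 and 159 CPM in WT, a ratio of 1.85 (1.60 to 2.14). IAA16, the most abundant of them, had 676 CPM in d14 and 459 CPM in WT, a ratio of 1.47 (1.35 to 1.61).

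Another 4 Aux/IAA genes had an interval above 1. IAA12 was at 73.5 CPM in d14 and 42.4 CPM in WT (1.73, 1.30 to 2.33), IAA4 at 180 and 112 CPM (1.61, 1.35 to 1.93), IAA8 at 137 and 89.6 CPM (1.52, 1.25 to 1.87), and IAA2 at 134 and 105 CPM (1.27, 1.05 to 1.55). Lower in d14 were GH3.6 (28.8 CPM in d14 and 53.6 CPM in WT, ratio 0.538, 0.381 to 0.753) and GH3.17 (124 and 193 CPM, 0.639, 0.541 to 0.755). So were 3 Aux/IAA genes, IAA28 (32.2 and 56.6 CPM, 0.569, 0.410 to 0.786), IAA27 (37.5 and 63.7 CPM, 0.589, 0.434 to 0.795) and IAA9 (546 and 645 CPM, 0.846, 0.778 to 0.920). IAA13 (1.01, 0.836 to 1.22), IAA7 (0.908, 0.796 to 1.04), IAA18 (0.929, 0.697 to 1.24) and IAA26 (0.877, 0.751 to 1.02) had intervals that include 1. Of the genes with an interval above 1, 5 of 10 held TGTCTC or TGTCGG in the upstream window described above, and of those below 1, 1 of 5. Among all members, 16 of 36 (44.4%) held either.

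**Figure D5:**
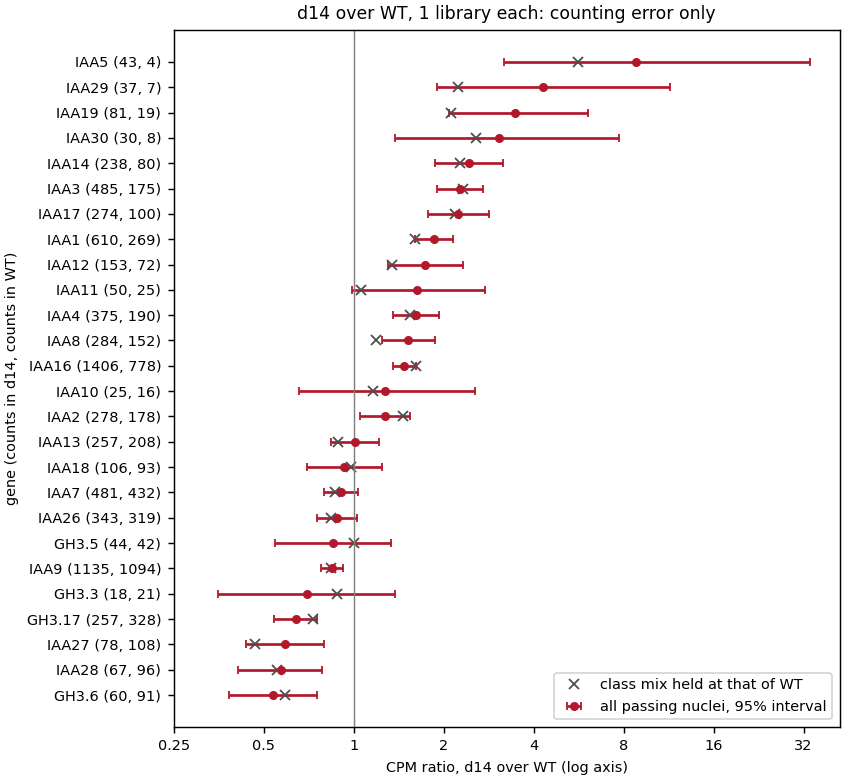
Ratio of CPM in d14 over WT for each member with at least 30 counts over both libraries, on a log axis, with exact 95% intervals for counting error, 1 library per genotype, and crosses for the ratio with the class mix held at that of WT. IAA14, IAA3 and IAA17 lie above 2 with either value, and GH3.6, IAA28 and IAA27 are the lowest.

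Among members with fewer than 50 counts, chosen after their values were seen, IAA5 had 43 counts in d14 and 4 in WT (ratio 8.77, 3.19 to 33.6), IAA29 had 37 and 7 (4.31, 1.90 to 11.5), and IAA30 had 30 and 8 (3.06, 1.37 to 7.72). IAA6, the paralogue of IAA5, had 17 counts in d14 and 0 in WT. Since these genes were picked by their values, their direction says nothing about the other members with few counts. In d14 29 of the 37 IAA29 counts lay in vessel-like nuclei.

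Vessel-like nuclei made up 9.73% of d14 nuclei (80) and 3.22% of WT nuclei (22), and several members are high in that class. With the class mix of d14 held at that of WT, IAA8 was at 1.18 times, IAA12 at 1.34 times and IAA1 at 1.60 times its WT level. IAA19 was at 2.12 times, against 3.48 times unadjusted. IAA3 (2.31), IAA14 (2.27) and IAA17 (2.18) were at 2-fold or more with the mix held too. IAA16 was at 1.61 times.

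Within classes, IAA3 was higher in d14 than in WT in developing phloem-like nuclei (598 and 249 CPM, ratio 2.40, 1.60 to 3.70), phloem parenchyma-like nuclei (526 and 172 CPM, 3.07, 1.87 to 5.19), xylem parenchyma-like nuclei (359 and 129 CPM, 2.79, 1.55 to 5.39), epidermis-like nuclei (83.1 and 21.9 CPM, 3.79, 1.70 to 9.54) and vessel-like nuclei (338 and 158 CPM, 2.14, 1.06 to 4.90). The interval of IAA3 thus lay above 1 in 5 named classes. IAA17 was higher in xylem parenchyma-like (6.10, 2.21 to 23.5) and companion cell-like nuclei (5.95, 2.34 to 19.3), and IAA14 in epidermis-like nuclei (2.79, 1.49 to 5.56). IAA16 was higher in developing phloem-like (2.50, 1.79 to 3.56), phloem parenchyma-like (1.46, 1.13 to 1.88) and epidermis-like nuclei (1.40, 1.16 to 1.69). GH3.17 was lower in epidermis-like nuclei, at 268 CPM in d14 and 534 CPM in WT (0.501, 0.390 to 0.641). GH3.6 had 2 counts in the 16 companion cell-like nuclei of d14 and 15 counts in the 11 of WT. IAA9 was lower in xylem parenchyma-like nuclei (ratio 0.678, 0.534 to 0.862) and phloem parenchyma-like nuclei (0.742, 0.563 to 0.975).

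Of the ARF genes, ARF5 was at 1.50 times its WT level in d14 (1.15 to 1.97) and ARF19 at 1.47 times (1.15 to 1.90), while ARF6 was at 0.723 times (0.576 to 0.907) and ARF3 at 0.718 times (0.561 to 0.919). None of the 5 receptor genes with at least 50 counts had an interval that left out 1, nor did any of the 5 TOPLESS genes. IAMT1, an auxin methyltransferase gene, had 128 counts in d14 and 10 in WT (ratio 10.4, 5.49 to 22.3). Of 91 other published auxin-induced genes with at least 50 counts, 69 were higher and 22 lower in d14, where 50.8% of all such genes were higher. The median log2 ratio of the 91 was 0.43, against 0.01 over all genes. The interval lay above 1 for 45 of the 91 and below 1 for 8, against 12.3% and 13.0% of all genes. For the genes of this paragraph the class mix was not held at that of WT. Vessel-like nuclei made up 9.73% of d14 and 3.22% of WT nuclei, and the part of this difference in these ratios was not tested.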

How the data were processed

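The deposited matrices hold raw counts, whole numbers for each gene in each barcode or well. The authors made these counts with STAR 2.7.8a for the plates and the 10x all hypocotyl library and with Cell Ranger 6.0.1 for d14 and WT, introns included, and the submitters' processing notes name TAIR10 as the build. Nuclei with 1200 to 10000 (10x all hypocotyl), 1200 to 15000 (plates) or 1500 to 15000 counts (d14 and WT) were kept. The study's limit on fluorescence was not applied. Of 6 wells per plate without a nucleus, none was used. Scrublet called at most 1 doublet per group and doublets were kept. Clusters were formed in Seurat 5.3.0 (15 principal components, resolution 1.8 on the plates, 1.2 elsewhere) with the 36 genes left out of the variable genes, and named from marker lists that hold none of them. The barcode list supplied for d14 does not match its columns, so barcodes shared with d14 could not be counted, and the 10x all hypocotyl and WT libraries shared 1.

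Counts were summed per plate, or per plate and tissue, and tested in edgeR 4.0.16 (TMM, filterByExpr, Benjamini-Hochberg adjustment over all genes tested, threshold 0.05), after the scripts had been tested on simulated data. DESeq2 1.42.0 was an alternative. CPM scales the counts of a gene by all counts of the same nuclei. The ratio of d14 over WT has an exact (Clopper-Pearson) 95% interval. Per-plate or per-library values are given for every member called in a test, for the 8 members with the highest mean CPM over the plates and, for d14 and WT, for every member with at least 50 counts and an interval that leaves out 1. Gene positions, coding sequences and upstream bases come from RefSeq for TAIR10.1. Members, gene lists and rules were chosen with earlier results of these data known.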

Additional observations from a re-analysis of the deposited data

How the results depend on the processing

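Most values kept their direction and their side of the threshold, and no result reversed. Of the values of single genes, 218 were unchanged in direction and side, 36 were no longer past the threshold and 8 moved by more than their counting interval or spread. The number of members called between the gates (5) was 8 without a filter on low counts and 3 without the nuclei of highest doublet scores, and 2 to 4 when single plates were left out. Between the sides (3) it was 2 by DESeq2 and 2 with no replicate block (no plate term), both without IAA16, 1 (IAA8) with at least 2 reporter counts, 0 on the cambium plates alone and 1 (IAA8) on the all hypocotyl plates alone, where fewer plates enter the fit, and 2 to 3 when single plates were left out. Between xylem and phloem classes (3) it was 10 without a filter, 5 at a resolution of 1.2 and 6 with other auxin-induced genes also left out of the variable genes, and 2 to 4 when single plates were left out. For CSC-like nuclei (3) it was 2 with no replicate block (no plate term) and 2 without the ACL5 and LAX2 cluster, both without GH3.6, and 2 to 3 when single plates were left out. At a minimum of 2500 counts per nucleus, 2 members were at least 2-fold higher in d14, in place of 4. The cause was not tested for the changes with filters, resolution and gene choice. A replicate block between the gates gave 5 members and 574 genes in all, against 505 without it, and the correlations of same-numbered plates (0.134, -0.032 and 0.074) gave no pairing. The interaction of side and gate, chosen after seeing the data, passed the threshold for 0 of 13 members by edgeR (2 with an unadjusted p below 0.05) and for 0 of 5522 genes. CSC-like nuclei did not form at a resolution of 1.2 or with auxin-induced genes left out, and no vessel-like nuclei could be left out on the plates, so these alternatives gave no value. Depth limits the low members, of which 10 of 36 could not be tested between gates and 27 of 36 between xylem and phloem classes.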

Other observations

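IAA19 had a further site of high counts outside the xylem classes. On the plates the unnamed cluster led by BGLU31 and PNP-A (143 nuclei) had 72.0 CPM of IAA19 (95% Poisson interval 56.4 to 90.5), and in the 10x all hypocotyl library the unnamed cluster led by BGLU31 and MSRB8 (190 nuclei) had 196 CPM (158 to 241), against 57.0 CPM (32.6 to 92.6) in vessel-like nuclei. IAA28, a gene of lateral root formation, had 235 CPM (182 to 299) in vessel-like nuclei, 194 CPM (146 to 254) in xylem parenchyma-like nuclei and 130 CPM (100 to 166) in CSC-like nuclei of that library.

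IAA3 and IAA17 were high in CSC-like nuclei of the 10x all hypocotyl library, at 619 CPM (551 to 693) and 334 CPM (285 to 389). The CSC-like nuclei of the plates had 127 CPM of IAA3 (99.6 to 159) and 87.4 CPM of IAA17 (65.1 to 115). The leading genes of this class differ between the methods, as given for IAA8 above, so these values are not repeats of each other.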
